A study of Homo sapiens with 6 samples.

Results

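Messenger RNA of the fatty acid and glycerolipid pathway was examined in LN229 cells in which GDH1 had been knocked down. The pathway was taken as 38 listed genes in 7 steps: acetyl-CoA supply, malonyl-CoA and the synthase, desaturases, elongases, the other enzymes of the elongation cycle, acyl-CoA synthetases, and glycerolipid assembly. All 38 were found by symbol among the 24976 symbols of the deposited count table, counts of rows with the same symbol were summed, and 37 passed the filter on low counts among 15638 symbols tested. Membership rests on the gene symbol, but the list was chosen with earlier results of these data known. LN229 is an adherent cell line from a human glioblastoma. The 3 knockdown libraries came from dishes given small interfering RNA (siRNA) against GDH1 with a lipofectamine reagent for 24 h, titled siRNA1 to siRNA3, and the 3 control libraries, titled NC1 to NC3 and labelled wild type (WT), came from the same line. The protocol also describes an NC mixture dripped onto dishes, but what it holds, and whether more than 1 siRNA sequence was used, could not be read from the labels. The 3 replicates per group are cultures of 1 line.

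Fatty acids are built in the cytosol. ATP citrate lyase and acetyl-CoA synthetase supply acetyl-CoA, acetyl-CoA carboxylase turns it into malonyl-CoA, and fatty acid synthase joins these units into palmitate. Desaturases and the elongation cycle of the endoplasmic reticulum then set double bonds and length, acyl-CoA synthetases activate the chains, and glycerol-phosphate, lysophosphatidate and diacylglycerol acyltransferases with the lipins build them into phospholipid and triacylglycerol. Many of these genes are known targets of the transcription factor SREBP1, which binds sterol regulatory elements (SREs), often beside bound NF-Y at CCAAT boxes and Sp1 at GC boxes.

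The upstream sequences of 3 genes that fell and 1 that rose are shown because the promoter is where these factors act. Each is the 250 bases before the RefSeq transcription start, 5′ to 3′ on the gene's strand (GRCh38.p14), with capitals on every match, on either strand, to the SRE core TCACNCCAC, the E-box CACGTG, the CCAAT box CCAAT or the GC box GGGCGG.
MID1IP1 (chrX:38801209-38801458, plus strand): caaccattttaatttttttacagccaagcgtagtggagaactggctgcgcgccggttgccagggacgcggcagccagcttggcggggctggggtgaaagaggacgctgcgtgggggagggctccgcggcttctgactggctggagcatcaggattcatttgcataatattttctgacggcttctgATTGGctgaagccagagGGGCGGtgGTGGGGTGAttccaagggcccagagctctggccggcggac
SCD (chr10:100346983-100347232, plus strand): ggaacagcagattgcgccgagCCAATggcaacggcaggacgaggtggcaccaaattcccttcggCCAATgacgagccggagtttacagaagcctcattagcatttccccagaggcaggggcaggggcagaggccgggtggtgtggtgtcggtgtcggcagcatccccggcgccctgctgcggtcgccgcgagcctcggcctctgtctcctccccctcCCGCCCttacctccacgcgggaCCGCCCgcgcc
ACSS2 (chr20:34874739-34874988, plus strand): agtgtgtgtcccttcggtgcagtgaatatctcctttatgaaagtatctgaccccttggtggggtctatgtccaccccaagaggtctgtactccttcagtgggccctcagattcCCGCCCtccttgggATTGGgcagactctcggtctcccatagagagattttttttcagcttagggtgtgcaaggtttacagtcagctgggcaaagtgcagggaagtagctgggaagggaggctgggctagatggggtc
HACD2 (chr3:123585054-123585303, minus strand): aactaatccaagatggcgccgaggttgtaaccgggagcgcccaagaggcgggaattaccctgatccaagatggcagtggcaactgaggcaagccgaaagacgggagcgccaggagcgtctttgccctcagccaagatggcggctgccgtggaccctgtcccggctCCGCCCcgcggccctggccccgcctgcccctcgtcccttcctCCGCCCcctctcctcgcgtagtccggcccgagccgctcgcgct
MID1IP1 carries the SRE core on the minus strand, starting 40 bases before the transcription start, with a GC box at 48 and a CCAAT box at 65. In SCD 2 CCAAT boxes lie at 229 and 186 bases before the start and 2 GC boxes at 33 and 11. ACSS2 has a GC box at 137 and a CCAAT box at 123, and HACD2, a gene that rose, has 2 GC boxes at 85 and 43 and no CCAAT box in this window. No match overlaps another motif in these windows.

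Promoter windows of 300 bases (250 before to 50 after a start) were listed for 32 of the 38 members, that is for all but FASN, HSD17B12, LPIN3, DGAT1, DGAT2 and PNPLA3. The SRE core was in a window of 1 of 12 members that fell (MID1IP1), of 1 of 4 that rose (ACSL1, at another of its starts) and of 0 of 15 that did not pass, against 165 of 10897 tested genes with a window (1.51%). It was also in a window of ACSL6, which was too low to test. A CCAAT box was in a window of 8 of the 12 that fell and 3 of the 4 that rose (43.4% of tested genes with a window), a GC box in all 12 and all 4 (75.6%), and an E-box in 0 of these 16 (12.6%). Genes with several starts had several windows, which raises the chance of a match. These are matches of letters and not measured binding.

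GLUD1, the gene of GDH1 (chromosome 10, 87050202 to 87094843), fell well below the controls. Its level was 20.9, 26.2 and 26.7 CPM (counts scaled to library size, with TMM factors) in knockdown libraries, against 88.3, 85.5 and 85.7 CPM in controls. The log2 fold change, knockdown over control, was -1.82 with a standard error (SE) of 0.10 (adjusted p = 7.46e-07, edgeR's quasi-likelihood test), and the exact permutation p (two-sided, on log2 CPM) was 0.1, which is as small as 6 libraries in 2 groups can give. Library totals were 33355207 to 35619614 counts in the knockdown and 31201100 to 34452724 in controls. Of the tested symbols, 13.1% were called lower and 13.0% higher (Benjamini-Hochberg adjusted p under 0.05). Of 7 genes listed for a glioma line, S100B fell, at 197 ± 10.3 CPM in the knockdown and 430.2 ± 13.9 CPM in controls (SD, n = 3 each; log2 fold change -1.13). SOX2 (0.78), CD44 (0.44), EGFR (0.40) and VIM (0.21) rose, NES (-0.19) did not pass, and GFAP was at most 0.660 CPM. Among defining markers of other cells AIF1, CDH5, CDH1 and LEP were at 0 and PTPRC, PECAM1, EPCAM, ADIPOQ and ALB at most 0.388 CPM. CD68, a macrophage gene, averaged 27.5 ± 1.36 CPM in the knockdown and 15.0 ± 1.74 CPM in controls (SD, n = 3 each). The part of these differences in the results was not tested. As in any bulk sample, fewer cells of a type and less RNA per cell cannot be told apart.

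Most genes that moved in the pathway fell. The members were chosen with earlier results of these data known, so the shares below describe the list and are not a test of it. Of the 37 tested members, 16 fell (43.2%, against 13.1% of all tested symbols), 4 rose (10.8%, against 13.0%) and 17 did not pass; 26.1% of all tested symbols passed in either direction. The median log2 fold change was -0.20 against -0.0033 over all tested symbols, and -0.12 without control replicate 1. Knockdown libraries lay below all controls for 19 members (20.5% of all tested symbols did) and above all controls for 8 (21.6%). The falls were also large: 6 members, or 16.2%, had a log2 fold change at or below -0.9, a size reached by 3.41% of tested symbols. These 6 were FADS2, FASN, PNPLA3, ACSS2, SCD and MID1IP1. The summed share of all library counts that the 38 genes took was 0.301 to 0.313% in the knockdown and 0.417 to 0.443% in controls, and FASN alone took 0.0438 to 0.0663% in the knockdown and 0.122 to 0.147% in controls. With 1 library left out, 11 to 19 members fell and 2 to 5 rose, with 11 lower without knockdown replicate 2 or control replicate 2 and 2 higher without knockdown replicate 2 or control replicate 2 or 3. Over all tested symbols, 1053 to 3258 were then lower and 1161 to 2978 higher.

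**Figure D1:**
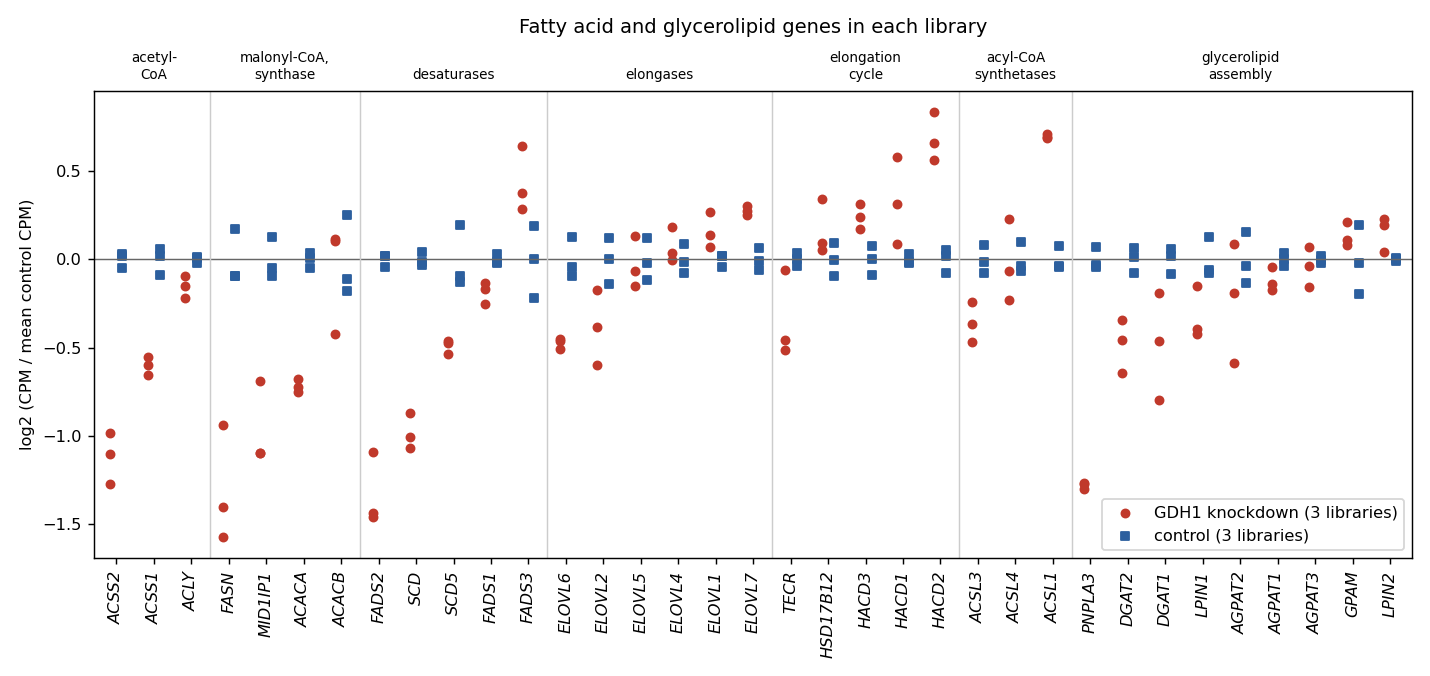
CPM of 35 members in each library, as log2 of the value over the mean of the 3 controls (vertical axis), ordered by step and by fold change within a step (horizontal axis); circles are the 3 knockdown and squares the 3 control libraries, and ACSL5, ACSL6 and LPIN3, which were near 0, are left out. The 6 genes with the largest falls lie below their controls in every knockdown library, with a log2 fold change between -0.95 and -1.32.

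Of the enzymes that supply acetyl-CoA (median log2 fold change -0.60), both acetyl-CoA synthetases fell, and ATP citrate lyase did not pass. ACSS2, the cytosolic and nuclear enzyme that makes acetyl-CoA from acetate (chromosome 20, 34874989 to 34927959), had 35.6, 32.8 and 29.1 CPM in knockdown libraries, against 71.2, 67.8 and 71.9 CPM in controls. All 3 knockdown values were about equally low, and the groups did not come near each other (log2 fold change -1.11, SE 0.09, adjusted p = 7.07e-06, edgeR). ACSS1, the mitochondrial enzyme for the same reaction, had 43.5, 40.5 and 42.1 CPM in the knockdown and 66.5, 60.1 and 64.6 CPM in controls. It fell by less (-0.60, SE 0.08, adjusted p = 0.000285), and the ratio of ACSS2 to ACSS1 was lower in every knockdown library than in any control. ACLY, which makes acetyl-CoA from citrate and was the highest of the 3 per length, had 226, 217 and 206 CPM in the knockdown and 243, 242 and 237 CPM in controls. Its groups did not overlap, yet the difference was small (-0.15, SE 0.06) and had an adjusted p of 0.104, or 0.0252 without knockdown replicate 1.

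At the committed step and the synthase, 3 of 4 genes fell (median log2 fold change -0.83). FASN, the fatty acid synthase (chromosome 17, 82078338 to 82098236), was the highest member per length in controls, with 678, 491 and 437 CPM in knockdown libraries and 1466, 1216 and 1216 CPM in controls. Knockdown replicate 1 was the highest of the 3 and control replicate 1 the highest of the controls, and the groups were far apart (log2 fold change -1.28, SE 0.15, adjusted p = 0.000516, edgeR). FASN has the second highest transcript GC content of the list (65.3%), and with each library's trend over GC content and transcript length removed it was at -0.96 (SE 0.04). ACACA, the acetyl-CoA carboxylase of the cytosol (chromosome 17, 37084992 to 37406836), had 84.2, 88.5 and 85.7 CPM in the knockdown and 142, 145 and 137 CPM in controls. These values lay close together within each group (-0.72, SE 0.07, adjusted p = 2.35e-05). ACACB, the isoform of the mitochondrial outer membrane, was lower per length, at 0.753 CPM per kb of transcript in the knockdown and 0.778 in controls, where ACACA was at 8.64 and 14.2. It had 7.89, 7.82 and 5.43 CPM in the knockdown and 8.67, 6.74 and 6.43 CPM in controls. Its groups overlapped (-0.05, SE 0.18), and without knockdown replicate 3 or control replicate 1 its fold change was above 0. MID1IP1, whose product promotes polymerisation of acetyl-CoA carboxylase, had 16.3, 12.3 and 12.3 CPM in the knockdown and 28.7, 25.4 and 24.6 CPM in controls. It fell to about the same degree as SCD (-0.95, SE 0.13, adjusted p = 0.000321).

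Among the desaturases 3 fell, FADS3 rose and FADS1 did not pass (median log2 fold change -0.49). SCD, the stearoyl-CoA desaturase that makes oleate and palmitoleate (chromosome 10, 100347233 to 100364826), had 166, 191 and 174 CPM in knockdown libraries, against 342, 359.8 and 346 CPM in controls. The knockdown mean was 50.8% of the control mean, and the spread within each group was small (-0.98, SE 0.07, adjusted p = 3.12e-06, edgeR). SCD5, its paralogue, had 9.27, 9.22 and 8.81 CPM in the knockdown and 12.0, 14.6 and 11.7 CPM in controls. The smaller fall of SCD5 (-0.49, SE 0.12, adjusted p = 0.0142) lost its call without knockdown replicate 2 (adjusted p = 0.0524) or control replicate 2 (0.0706).

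FADS2, the delta-6 desaturase that starts the making of polyunsaturated fatty acids (chromosome 11, 61816203 to 61867354), was among the members that fell most. It had 53.7, 41.5 and 42.2 CPM in the knockdown and 116, 111 and 116 CPM in controls (-1.32, SE 0.10, adjusted p = 4.25e-06), or -1.08 (SE 0.05) with the GC and length trend removed. FADS1, the delta-5 desaturase next to it (61799627 to 61817003), had 145, 137 and 148 CPM in the knockdown and 161, 166 and 162 CPM in controls. The groups of FADS1 did not overlap, but the difference was small (-0.18, SE 0.07, adjusted p = 0.0622). FADS1 passed without knockdown replicate 1 (0.0265) or 3 (0.0487), with DESeq2 (0.0477) and with the GC and length trend removed (0.00394). The annotated spans of these 2 genes, which lie on opposite strands, share 801 bases, and since the strand setting of the counting is not given, reads in that stretch could belong to either. FADS3, a paralogue in the same cluster, had 15.8, 13.1 and 12.3 CPM in the knockdown and 11.5, 8.71 and 10.1 CPM in controls. It was low, and its rise (0.44, SE 0.14, adjusted p = 0.0379) was 0.72 with the GC and length trend removed. It was not called without knockdown replicate 1 or 2 or control replicate 2 or 3, where the adjusted p was 0.0645 to 0.134.

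Of the 6 elongases, ELOVL2 and ELOVL6 fell and 4 did not pass (median log2 fold change 0.03). ELOVL6, which extends palmitate to stearate (chromosome 4, 110045846 to 110199202), had 31.9, 33.2 and 32.8 CPM in knockdown libraries, against 42.4, 49.6 and 43.9 CPM in controls. The knockdown values were nearly equal (-0.47, SE 0.09, adjusted p = 0.00261, edgeR). ELOVL2, which extends polyunsaturated chains, had 24.5, 28.4 and 32.8 CPM in the knockdown and 33.6, 40.4 and 37.2 CPM in controls. Its highest knockdown value was just under its lowest control value, and the call (-0.37, SE 0.12, adjusted p = 0.0345) was lost without knockdown replicate 2 or any 1 control, at 0.0511 to 0.136. ELOVL5, which extends polyunsaturated chains of intermediate length, had 137, 146 and 167 CPM in the knockdown and 141, 166 and 151 CPM in controls, and its groups overlapped (-0.02, SE 0.09; 0.039 and 0.046 without knockdown replicate 1 and control replicate 2). ELOVL1 (0.16), ELOVL4 (0.08) and ELOVL7 (0.28) did not pass. With the GC and length trend removed, ELOVL1 was higher at 0.26 (adjusted p = 9.10e-05), ELOVL5 was lower at -0.14 (0.0159) and ELOVL4 was at -0.07.

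The other enzymes of the elongation cycle, which reduce and dehydrate the lengthened chain, gave 2 genes that rose, 1 that fell and 2 that did not pass. HACD2, a 3-hydroxyacyl-CoA dehydratase (chromosome 3, 123491554 to 123585053), rose, with 122, 130.2 and 147 CPM in knockdown libraries and 78.1, 85.6 and 83.6 CPM in controls. All knockdown values lay far above all controls (0.69, SE 0.08, adjusted p = 0.000157, edgeR). HACD3, a related dehydratase, had 125, 131 and 137 CPM in the knockdown and 104, 111 and 117 CPM in controls. Its rise was small (0.24, SE 0.07, adjusted p = 0.0311; 0.14 with the GC and length trend removed) and was not called without knockdown replicate 2 or 3 or any 1 control (0.0590 to 0.141). TECR, the enoyl-CoA reductase of the cycle and the highest of these genes per length, had 142, 108 and 104 CPM in the knockdown and 148, 145 and 152 CPM in controls. Knockdown replicate 1 lay close to the controls and the other 2 well below (-0.33, SE 0.11, adjusted p = 0.0418). TECR was not called without knockdown replicate 2 or 3 or any 1 control (0.0849 to 0.167) and was at -0.12 with the GC and length trend removed (adjusted p = 0.0446). TECR has 1 row, so its own counts do not change with summing. In the fit where other symbols were not summed, its adjusted p was 0.0501. HACD1 (0.34) and the ketoacyl-CoA reductase gene HSD17B12 (0.17) did not pass, and HSD17B12 had an adjusted p of 0.0467 without knockdown replicate 1.

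Acyl-CoA synthetases activate free fatty acids. Of the 4 tested, 1 rose, 1 fell and 2 did not pass, where 13.0% of all tested symbols rose and 13.1% fell. ACSL1 (chromosome 4, 184755595 to 184826594) had 139.6, 139 and 141 CPM in knockdown libraries, against 83.8, 90.7 and 84.0 CPM in controls. The knockdown values were nearly equal and all above the controls (0.70, SE 0.07, adjusted p = 3.14e-05, edgeR). ACSL3, which serves lipid droplet formation and was the highest synthetase per length, had 281, 302 and 329 CPM in the knockdown and 385, 412 and 369 CPM in controls. It fell (-0.36, SE 0.08, adjusted p = 0.00536). ACSL4, which prefers arachidonate, overlapped between groups, with 96.0 to 132 CPM in the knockdown and 108 to 121 CPM in controls (-0.0080, SE 0.11), and was at -0.17 (adjusted p = 0.0108) with the GC and length trend removed. Its fold change was above 0 with upper quartile scaling and without knockdown replicate 1 or 2 or control replicate 2. ACSL5 had 4 to 14 counts in knockdown and 7 to 22 in control libraries and did not pass, and ACSL6 had 0 to 6 counts in the knockdown and 0 to 2 in controls.

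**Figure D2:**
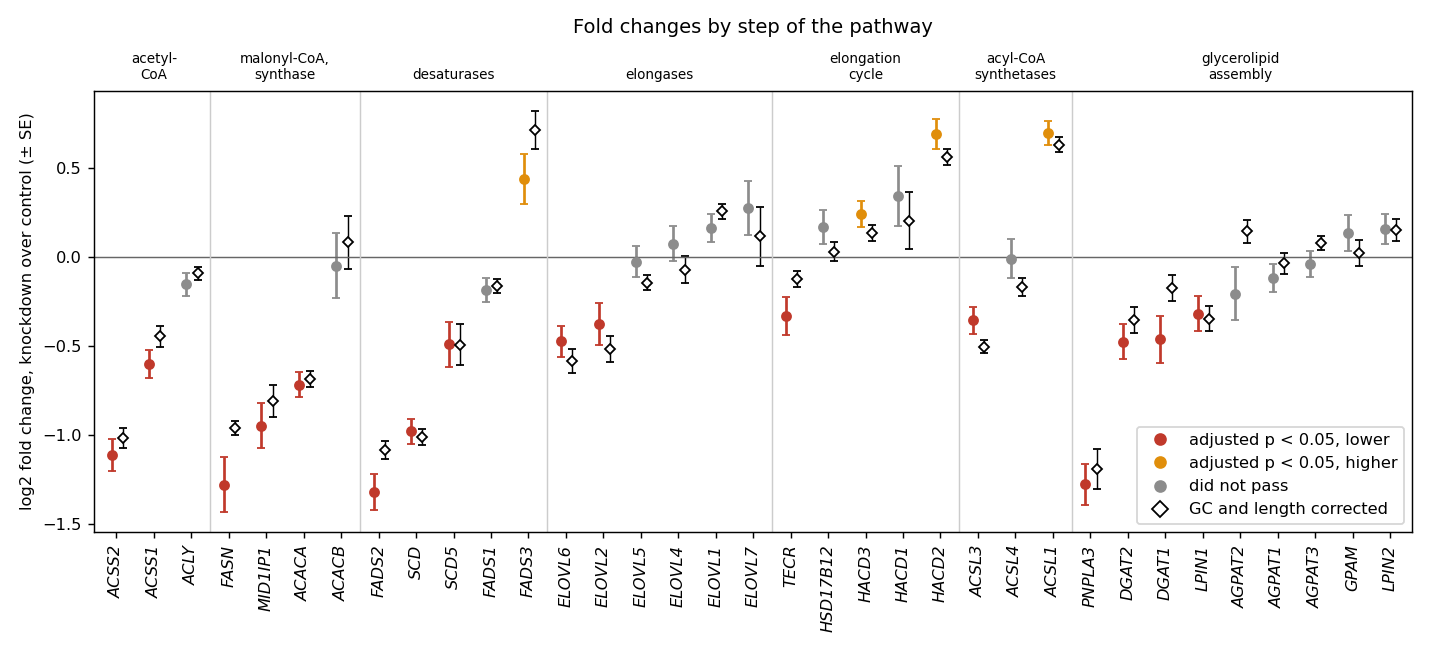
Log2 fold change of 35 members, knockdown over control, with its SE (vertical axis), by step (horizontal axis); filled circles are the edgeR values, coloured by call, and open diamonds the values with each library's GC and length trend removed. With that correction FASN is at -0.96 in place of -1.28, AGPAT2 at 0.15 in place of -0.20 and SCD at -1.01 in place of -0.98.

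In glycerolipid assembly, 4 of 10 genes fell and 6 did not pass (median log2 fold change -0.26). PNPLA3, a lipase and acyltransferase of lipid droplets (chromosome 22, 43923805 to 43947582), had 6.14, 6.00 and 6.12 CPM in knockdown libraries, against 15.5, 14.4 and 14.3 CPM in controls. It was a low transcript whose knockdown values hardly differed among themselves (-1.28, SE 0.12, adjusted p = 1.56e-05, edgeR). DGAT2, which makes the last bond of triacylglycerol (chromosome 11, 75768778 to 75801534), had 26.0, 24.1 and 21.1 CPM in the knockdown and 34.5, 33.3 and 31.2 CPM in controls. The fall was -0.47 on the log2 scale (SE 0.10, adjusted p = 0.00535).

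DGAT1, the unrelated enzyme for the same reaction, had 36.4, 30.1 and 23.9 CPM in the knockdown and 43.2, 42.0 and 39.3 CPM in controls. It fell (-0.46, SE 0.13, adjusted p = 0.0248), but not without knockdown replicate 2 or any 1 control (adjusted p 0.0586 to 0.0943), nor with the GC and length trend removed (-0.17, adjusted p = 0.0692). DGAT1 has 2 rows in the table, with 629 and 639 counts in knockdown replicate 1 and 394 and 1098 counts in control replicate 1, so the split of reads between them is uncertain and the rows were summed. ACACA (2 rows) and AGPAT1 (7 rows) were summed in the same way. LPIN1, a phosphatidate phosphatase, had 45.6, 44.8 and 54.1 CPM in the knockdown and 57.0, 65.4 and 57.5 CPM in controls. Its fall was small (-0.32, SE 0.10, adjusted p = 0.0318) and was not called without knockdown replicate 2 or any 1 control (0.0677 to 0.147).

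The acyltransferases of the first steps did not pass. AGPAT3 had 145, 135 and 124 CPM in the knockdown and 140.0, 136 and 138 CPM in controls (-0.04, SE 0.07). GPAM, the mitochondrial glycerol-phosphate acyltransferase, had 43.3, 44.2 and 47.5 CPM in the knockdown and 40.3, 46.8 and 35.7 CPM in controls, which overlapped (0.14, SE 0.10). AGPAT1 was at -0.12 and LPIN2 at 0.16, and LPIN2 passed without knockdown replicate 1 (0.0347). AGPAT2, whose GC content was the highest of the list (65.9%), was at -0.20 (SE 0.15), passed without knockdown replicate 1 (0.0220) and was at 0.15 with the GC and length trend removed. LPIN3 had 5 to 19 counts in knockdown and 9 to 19 in control libraries.

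Levels were compared between genes only per length, as CPM per kb of the longest annotated transcript. In controls FASN stood highest at 152 CPM per kb, followed by TECR at 125, ACSL3 at 68.5 and SCD at 65.1. In the knockdown TECR stood highest at 99.3 CPM per kb and FASN was at 62.5, ACSL3 at 53.5 and ELOVL1 at 52.7, while SCD was at 33.0, close to ACSL1 at 34.1. The transcript in use in these cells may be shorter than the longest one, which would change these levels but not the fold changes.

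**Figure D3:**
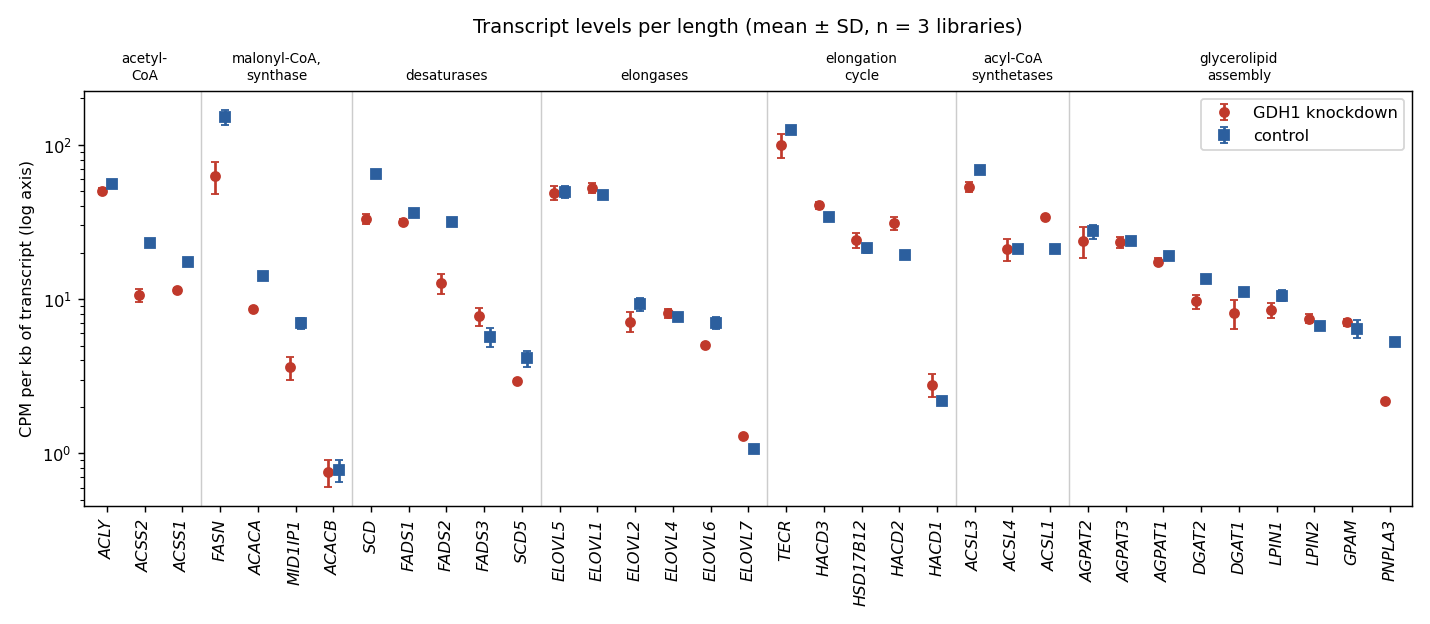
Level of 35 members in CPM per kb of transcript (vertical axis, log scale; mean ± SD of 3 libraries), by step and by control level within a step (horizontal axis); circles are knockdown and squares control. FASN is at 62.5 in the knockdown and 151.7 in controls, and TECR at 99.3 in the knockdown and 124.8 in controls.

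Within a library, the ratio of 2 related genes does not depend on scaling, but effects of GC content and length need not cancel in it. Of 10 pairs, 8 had ratios that did not overlap between groups, each with a two-sided exact permutation p of 0.1, the smallest possible, and an adjusted p over the 10 pairs of 0.125. No pair could pass a threshold of 0.05 in this design. The share of such pairs among gene pairs in general was not computed, and 42.0% of single tested symbols did not overlap in either direction. The pairs join members of a list chosen with earlier results known, so the count of 8 is not read as a result about them. The log2 ratio of FADS2 to FADS1 was -1.43, -1.72 and -1.81 in knockdown libraries, against -0.47, -0.58 and -0.48 in controls, so FADS2 was lower relative to FADS1 in every knockdown library (difference -1.14). For ACSL3 to ACSL1 the log2 ratio was 1.01, 1.12 and 1.22 in the knockdown and 2.20, 2.18 and 2.13 in controls, a difference of -1.06. With the GC and length trend removed, the difference was -0.92 for FADS2 to FADS1 and -1.13 for ACSL3 to ACSL1. The values that follow are without that correction. The differences were -0.66 for ACACA to ACACB, -0.52 for ACSS2 to ACSS1, -0.50 for SCD to SCD5, -0.48 for LPIN1 to LPIN2, -0.44 for ELOVL6 to ELOVL5 and -0.34 for ACSL3 to ACSL4. For ACACA to ACACB the groups were barely apart, at 3.96 in knockdown replicate 3 and 4.03 in control replicate 1. The 2 pairs that overlapped were AGPAT2 to AGPAT1 (-0.11, exact permutation p = 0.6) and DGAT2 to DGAT1 (0.0037, exact permutation p = 0.8).

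**Figure D4:**
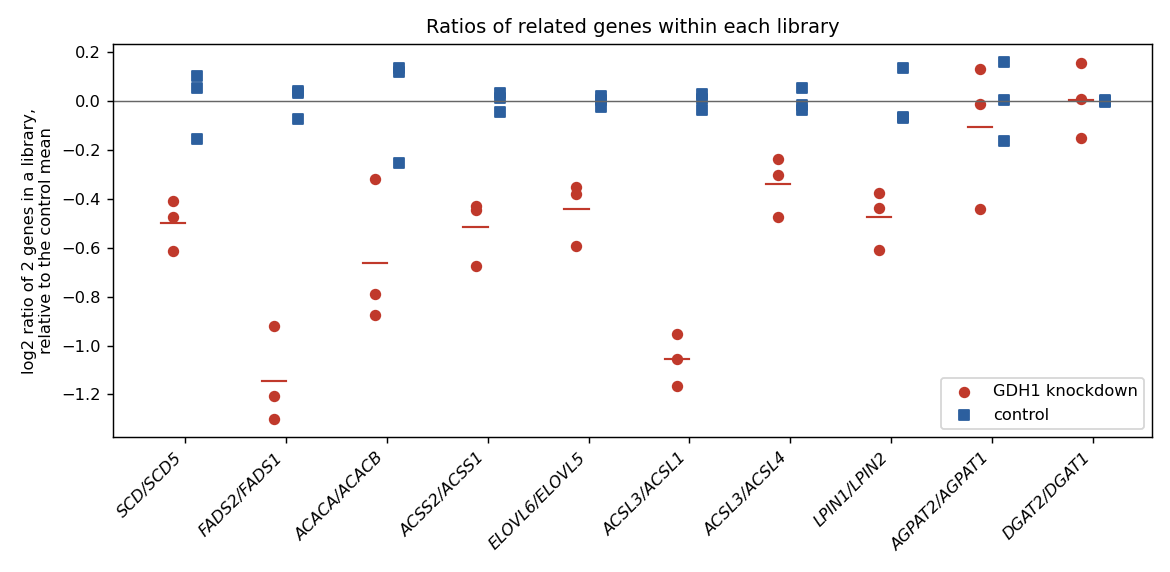
Log2 ratio of 2 related genes in each library, relative to the control mean of that ratio (vertical axis), for 10 pairs (horizontal axis); circles are knockdown libraries, squares control libraries and short lines the knockdown means. In 8 pairs all knockdown libraries lie below all controls, barely so for ACACA to ACACB. The difference in means for FADS2 to FADS1 is -1.14 on the log2 scale. AGPAT2 to AGPAT1 and DGAT2 to DGAT1 overlap. The ratios shown are without the GC and length correction.

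Fold changes over the whole table followed transcript GC content, with a median log2 fold change of 0.15 in the lowest of 5 equal bins (30.2 to 41.0% GC) and -0.28 in the highest (58.6 to 74.2%). The lowest bin held 8 tested members and the highest held 6. For each library, 5 equal GC bins were drawn anew over the more abundant genes (average log2 CPM 3 or above). Relative to the control mean, the lowest of these bins minus the highest was 0.05, 0.46 and 0.75 on the log2 scale in knockdown replicates 1 to 3. In control replicates 1 to 3 it was -0.12, 0.14 and -0.03. With the trend of each library removed, 18 members were lower and 5 higher. Over all tested symbols, 2483 were then lower and 2901 higher, against 2048 and 2037 without the correction. Of the 20 member calls, 19 were shared and had the same direction. DGAT1 lost its call, and FADS1, ELOVL5 and ACSL4 became lower and ELOVL1 higher. The share of counts in mitochondrial mRNAs was 2.70 to 3.14% in the knockdown and 3.40 to 3.93% in controls. The part of these library properties in single fold changes was not tested beyond this correction.

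**Figure D5:**
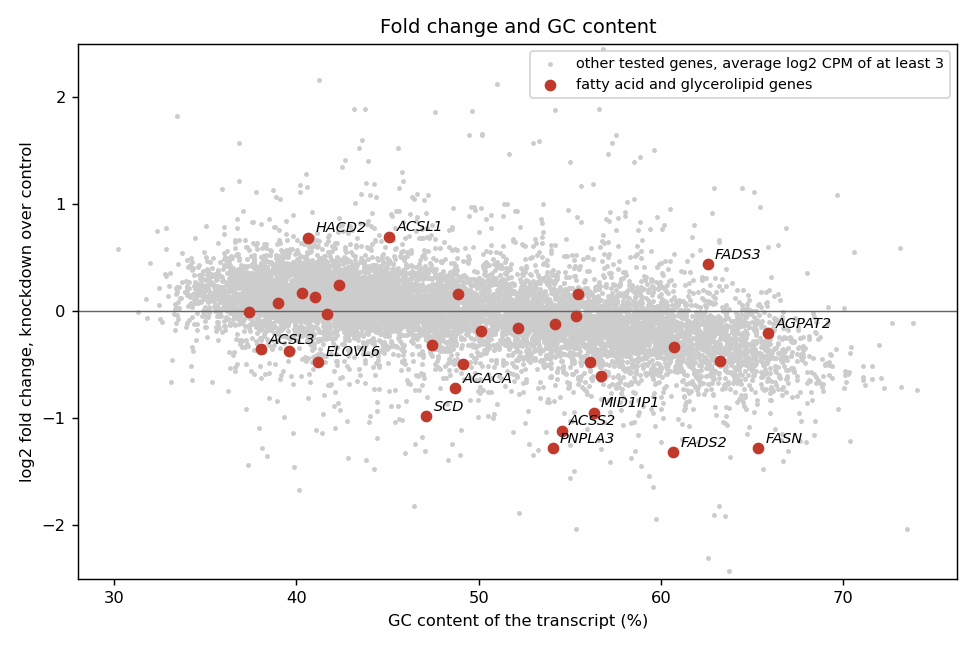
Log2 fold change, knockdown over control (vertical axis), against GC content of the longest transcript in % (horizontal axis), for the 10041 more abundant genes (average log2 CPM 3 or above), with 32 members as large points; 3 genes fall outside the plotted range. FASN, FADS2, PNPLA3, ACSS2, MID1IP1 and SCD lie between -0.95 and -1.32, and HACD2 and ACSL1 at 0.69 and 0.70.

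Genes around the pathway were read from lists that hold no member. Counts of called genes in these short lists stand against 13.1% of all tested symbols called lower and 13.0% called higher. Of 12 regulators, 10 were tested, 4 fell and 2 rose. INSIG1, a sterol-sensing anchor of SREBPs and itself a target of theirs, had 40.9, 48.1 and 43.5 CPM in knockdown libraries, against 112, 114 and 107 CPM in controls (-1.33, SE 0.08, adjusted p = 1.26e-06, edgeR). INSIG2, its paralogue, moved the other way, with 51.9, 64.6 and 56.6 CPM in the knockdown and 23.4, 23.5 and 27.5 CPM in controls (1.22). The SREBP genes SREBF2 (-1.06) and SREBF1 (-1.15) and the escort gene SCAP (-0.47) fell, and MLXIP, a glucose-sensing factor, rose (0.37). With the GC and length trend removed, SREBF2 was at -0.89, SREBF1 at -0.81, SCAP at -0.20 and MLXIP at 0.55. INSIG1 was then at -1.39 and INSIG2 at 1.05. MLXIP was not called without control replicate 2 (0.0744) or 3 (0.0876), which left 1 higher. MLXIPL and THRSP were too low to test.

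Among genes for citrate export and NADPH supply, SLC25A1, PGD and IDH1 fell and ME1 rose. SLC25A1, the citrate carrier, fell (-0.60, SE 0.12), as did PGD (-0.40) of the pentose phosphate pathway and IDH1 (-0.42). With the GC and length trend removed SLC25A1 was at -0.26 and still called. ME1, the cytosolic malic enzyme, rose by 0.42 (or 0.28 with that trend removed) but was not called without knockdown replicate 2 (0.0797) or control replicate 1 (0.0682).

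Among 16 other acyltransferases, 14 were tested, 2 rose and 3 fell. Over all tested symbols 13.0% rose and 13.1% fell, so these counts are not read as a result about the list. GPAT3, a glycerol-phosphate acyltransferase of the endoplasmic reticulum, had 193, 195 and 213 CPM in knockdown libraries, against 92.8, 99.2 and 91.6 CPM in controls. It rose by more than any gene of the 38 (1.08, SE 0.07, adjusted p = 2.06e-06, edgeR), whereas its mitochondrial counterpart GPAM overlapped. AGPAT5 also rose (0.49). The lysophospholipid acyltransferases LPCAT2 (-0.91), LPCAT1 (-0.56) and LPCAT3 (-0.45) fell. LPCAT1 has 2 rows and was not called from its larger row alone, where the log2 fold change was -0.64 (adjusted p = 0.616), and LPCAT3 was not called without knockdown replicate 2 (0.0506). Without knockdown replicate 1, 5 of this list were lower, and 6 were with the GC and length trend removed. Over all tested symbols, 3258 and 2483 were lower in these 2 fits, against 2048 in the main fit.

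Of 18 phospholipid head group genes, PCYT2 of phosphatidylethanolamine synthesis fell (-0.92, or -0.59 with the GC and length trend removed), PTDSS1 of phosphatidylserine synthesis rose (0.31) and 16 did not pass. Without knockdown replicate 1, 3 were lower, and without knockdown replicate 3, 2 were higher. With all libraries, 13.1% of all tested symbols (2048) were lower and 13.0% (2037) higher. Without knockdown replicate 1, 3258 symbols were lower and 2978 higher, and without knockdown replicate 3, 1684 were lower and 1767 higher. With the GC and length trend removed, 2483 were lower and 2901 higher. The counts of this list and those below are not read as results about the lists. Of 5 triacylglycerol breakdown genes, MGLL, the monoacylglycerol lipase, rose, with 225, 195 and 179 CPM in the knockdown and 102, 102 and 111 CPM in controls (0.93). PNPLA2, the first lipase of that route, fell (-0.48, or -0.14 with the GC and length trend removed), but was not called without knockdown replicate 2 (0.0646) or control replicate 1 (0.0710), and 2 of the list were lower without knockdown replicate 1. Of 11 fatty acid carriers, 7 were tested, and FABP7, the brain fatty acid binding protein, fell (-1.45), with 19.8, 24.2 and 22.3 CPM in the knockdown and 56.2, 61.7 and 63.7 CPM in controls. DBI, the acyl-CoA binding protein, fell by less (-0.31; -0.20 and not called with the GC and length trend removed, nor without knockdown replicate 2 or control replicate 3), and 5 of the list were lower without knockdown replicate 1. Of 10 genes of mitochondrial fatty acid and lipoate synthesis, 9 were tested, MCAT fell (-0.32), LIAS rose (0.64) and 7 did not pass. MCAT was not called without any 1 library other than knockdown replicate 1, nor with the GC and length trend removed (-0.11), and LIAS not without control replicate 1 (0.0539). Without knockdown replicate 1, 3 of this list were lower and 2 higher. Of 7 genes for sphingolipids and electron supply, 1 (CERS6, 0.27) rose, with its call lost without any 1 library other than knockdown replicate 1, where 2 were higher and 1 lower. With the GC and length trend removed, 3 of that list were higher and 1 lower.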

How the data were processed

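RNA-seq libraries from total RNA of 3 GDH1 knockdown and 3 control cultures were compared. The authors deposited raw read counts per gene row (28196 rows, of which 4956 are newly assembled loci), and per the submitters' processing notes the genome build was GRCh38.p14. No source used here names the aligner, the counter or whether counting used strand. Library totals of 31201100 to 35619614 counts set the counting precision, and p-values measure the spread between 3 cultures of each group. Counts of rows with the same symbol were summed, low symbols removed with filterByExpr, libraries scaled by TMM, and the groups tested with edgeR 4.0.16 (quasi-likelihood F-test, limma 3.58.1, R 4.3.3) on all 15638 symbols, with Benjamini-Hochberg adjustment and a threshold of 0.05. The SE of a log2 fold change is its size divided by the square root of F. GC and length trends were removed with loess offsets per library (span 0.5), from the longest GENCODE v29 transcript of each symbol, which was found for 82.9% of tested symbols. Alternatives were RLE and upper quartile scaling, other filters, DESeq2 1.42.0, voom, single rows, stricter calls, a replicate block and leaving out each library. The rule for named genes took every member, GLUD1 and, of each neighbouring list, up to 3 called genes with the smallest p; further genes of those lists were named after their values were seen. Promoters are from RefSeq. Some genes of the neighbouring and marker lists are not reported here. The members and lists were chosen with earlier results of these data known.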

Additional observations from a re-analysis of the deposited data

How the results depend on the processing

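With 1 library left out, 1053 to 3258 symbols were lower and 1161 to 2978 higher, 11 to 19 members fell and 2 to 5 rose, and the members' median log2 fold change was -0.27 to -0.12. At an adjusted p under 0.01, 977 symbols were lower and 1013 higher, and 2 members were higher. Tested against a 1.2-fold change (glmTreat), 757 were lower and 710 higher, with 9 members lower and 2 higher. FASN, SCD, FADS2, ACSS1, ACSS2, ACACA, MID1IP1, ELOVL6, PNPLA3, HACD2 and ACSL1 kept direction and call under every alternative run.

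Some members that were not called took the other sign. Over the libraries left out, the log2 fold change ranged from -0.14 to 0.096 for ACSL4, from -0.11 to 0.046 for ELOVL5, from -0.13 to 0.11 for ACACB, from -0.091 to 0.019 for AGPAT3, from -0.96 to 0.019 for LPIN3 and from -0.86 to 0.0047 for ACSL5, and the difference in log2 ratio from -0.23 to 0.060 for AGPAT2 to AGPAT1 and from -0.072 to 0.081 for DGAT2 to DGAT1. With the GC and length correction ACACB was at 0.083, AGPAT3 at 0.081, ELOVL4 at -0.070 and AGPAT2 at 0.15, and with the replicate block and that correction at 0.079, 0.081, -0.069 and 0.14. The correction put AGPAT2 to AGPAT1 at 0.18 and DGAT2 to DGAT1 at -0.18, and upper quartile scaling put ACSL4 at 0.0039. The cause was not tested.

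Whether replicate numbers pair the libraries could not be settled. Deviations of same-numbered libraries correlated at 0.37, 0.098 and -0.11, and not every library correlated best with its own number. The deviations were centred within each group, which ties these correlations to each other, so they cannot decide it. With the replicate block, 2522 symbols were lower and 2269 higher, and 16 members fell and 4 rose. ACSL5 (-0.51, SE 0.59) and LPIN3 (-0.33, SE 0.57) were measured on few counts, so their fold changes carry wide errors.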
